A study of Mus musculus with 24 samples.

Results

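Cytosolic ribosomal protein genes encode the proteins that, with ribosomal RNA, form the large and the small subunit of the ribosome. They were taken from a table of 55536 mouse entries by symbol: Rpl or Rps followed by a number or by the letters of the P stalk proteins and of Rpsa, with a mean of at least 1 TPM (a transcript level scaled to length and to a fixed total per library) over 24 libraries. The rule used no difference between groups. Of 89 matching symbols 83 passed, 48 of the large subunit and 35 of the small subunit. The 6 left out were Rpl10l, Rpl3l, Rpl6l, Rpl32l, Rpl39l and Rps3a3, with means of 0.0017 to 0.0633 TPM, and the lowest inside was Rpl12 at 11.3 TPM, so no gene lay near the threshold. Among the 83 genes, 80 are annotated as protein coding, and Rps3a2, Rps4l and Rps12l1 are annotated as pseudogenes.

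RNA was sequenced from livers of wild-type Balb/c mice aged 6 weeks in 3 groups of 8 libraries: healthy controls (Con), mice with acute pancreatitis (AP), and mice with severe acute pancreatitis (SAP), its form in which other organs can fail. The sources used here give neither the means of inducing this pancreatic inflammation nor the time to sampling. Whether libraries of a group are separate mice is not stated in the labels, and the p-values then cover only the spread between libraries, which may be technical. TPM keeps no read counts, so the depth is unknown. Differences are log2 changes of TPM + 1 with their standard error (SE), a fold is that change on a linear scale, and a gene rose or fell where limma gave a Benjamini-Hochberg adjusted p under 0.05 over the 10555 genes tested. Levels are means ± SD over the 8 libraries of a group.

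A ribosome holds its proteins in fixed amounts, and a liver cell that makes secreted plasma proteins carries many ribosomes. Most messenger RNAs of ribosomal proteins begin with a C followed by a run of pyrimidines, the TOP motif, through which mTOR signalling and the protein Larp1 set their translation and stability together. Their promoters mostly lack a TATA box and often hold sites for ETS factors such as GABP. Several members have further roles outside the ribosome, for example in holding the p53 regulator Mdm2.

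Start regions are shown for the 4 genes that rose most and the 4 that fell most in SAP against controls among those with an entry in the RefSeq promoter table (GRCm38.p6), since a pyrimidine-rich start is a known feature of the family. Each runs from 30 bases before to 20 bases after the annotated start, 5′ to 3′ on the gene's strand. Capitals mark runs of at least 5 pyrimidines that begin with C. The ranking used the levels listed under each gene's own symbol. With similar copies of their sequences added, the rise of Rps7 did not pass (limma adjusted p = 0.216) and that of Rps2 was smaller (log2 change 0.39, against 1.56 alone). The first 4 are genes that rose.
Rpl4, chr9:64173357-64173406, plus strand: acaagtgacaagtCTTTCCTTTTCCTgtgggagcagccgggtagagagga
Rps2, chr17:24720033-24720082, plus strand: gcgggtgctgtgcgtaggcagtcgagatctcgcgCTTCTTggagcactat
Rps3, chr7:99483690-99483739, minus strand: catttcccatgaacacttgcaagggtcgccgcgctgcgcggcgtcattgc
Rps7, chr12:28635934-28635983, minus strand: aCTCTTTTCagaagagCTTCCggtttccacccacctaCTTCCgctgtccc
The next 4 are genes that fell.
Rpl28, chr7:4792935-4792984, plus strand: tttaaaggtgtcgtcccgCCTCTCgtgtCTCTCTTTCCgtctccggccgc
Rpl14, chr9:120571487-120571536, plus strand: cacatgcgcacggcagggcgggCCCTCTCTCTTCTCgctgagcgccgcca
Rpl37, chr15:5116583-5116632, plus strand: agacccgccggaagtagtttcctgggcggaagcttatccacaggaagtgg
Rpl31, chr1:39367821-39367870, plus strand: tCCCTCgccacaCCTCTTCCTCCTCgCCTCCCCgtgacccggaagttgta

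Of the 83 genes, 60 had an entry in that table, which gives 250 bases before to 50 after the start for 27025 symbols. The letters CGGAAG, the core of an ETS site, were found on either strand in 41 of 60 (68.3%) against 18.8% of all symbols. CTTTCC within 10 bases before to 50 after the start was found in 16 (26.7%) against 3.04%. A C at the annotated start followed by at least 4 pyrimidines was found in 13 (21.7%) against 3.01%. CTTTCC and the pyrimidine start can overlap. TATAAA in the 50 bases before the start was found in 1 (1.67%) against 3.15%. The annotated start decides whether a pyrimidine run falls at the first base, and Rpl4, Rpl14 and Rpl31 carry runs of 13 or 14 bases that begin before it. The runs of 13 bases in Rpl4 and Rpl31 also end before the annotated start, and that of Rpl14 crosses it.

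The labelled tissue was checked against marker genes. Hepatocyte markers ranged in sum from 42801 to 53602 TPM (controls), 43538 to 58784 TPM (AP) and 39528 to 52330 TPM (SAP). Alb and Apoa1 held most of that sum, and of the 8 markers 4 fell in SAP against controls (Ttr, Cps1, Asgr1 and Apob, log2 changes -1.07, -1.38, -0.68 and -0.53) and 1 rose (Cyp2e1). Of 5 tested Kupffer cell markers 4 fell and 1 rose, with a median of -0.98. Neutrophil markers (9 genes) summed to 2.56 to 27.8 TPM in controls, 3.42 to 7.53 in AP and 127 to 358 in SAP, where all 4 of those tested rose, and stellate cell markers to 19.3 to 36.4, 10.7 to 32.5 and 50.2 to 115 TPM. Dcn held most of the stellate sum (23.1 TPM on average in controls, 80.3 in SAP), while Col1a1 fell in SAP (log2 change -0.57, adjusted p = 0.0409) and Lrat stood at 0.54 and 0.33 TPM. B cell markers stayed at or below 4.6 TPM and T and NK cell markers at or below 6.5 TPM. Exocrine pancreas markers (7 genes) summed to 17.1 to 41.6 TPM in controls, 16.4 to 26.1 in AP and 8.02 to 14.75 in SAP. Only Prss1 of that list was at 0 in all 24 libraries, and the 1 gene tested fell in SAP against controls (log2 change -0.99). The part of these cells in the results below was not tested, and in whole liver fewer cells of a type and less RNA per cell cannot be told apart. Some libraries stood apart within their group: SAP 26 to 29 from SAP 21, 22, 24 and 25, and AP 15, 17, 18 and 19 from AP 11, 12, 13 and 16, the former holding 7.81 to 10.3% of TPM in mitochondrial genome transcripts and the latter 11.5 to 13.7%. Over whole groups the mean share of those transcripts was 17.1 ± 3.68% (Con), 10.9 ± 2.0% (AP) and 4.46 ± 1.02% (SAP), and serum amyloid A genes took 0.327 ± 0.411%, 0.731 ± 0.366% and 9.52 ± 1.98%. Since TPM adds up to a fixed total, a larger share of such transcripts lowers all other values of a library.

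The 83 genes together made up 3.40 ± 0.404% of the summed TPM of a control library, 4.12 ± 0.246% of an AP library and 3.26 ± 0.721% of a SAP library. Single libraries ran from 2.89 to 4.02% in controls and from 3.84 to 4.64% in AP, and of the controls only Con 8, the highest, lay within the AP range. The SAP libraries fell into separate ranges: 2.40 to 3.02% in SAP 21, 22, 24 and 25, and 3.47 to 4.23% in SAP 26 to 29. Both ranges overlapped with the controls, and only the higher one overlapped with AP. Outside the mitochondrial transcripts the shares were 4.10 ± 0.385%, 4.63 ± 0.259% and 3.41 ± 0.755%.

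The summed level of the large subunit genes exceeded that of the small subunit genes in every library. The ratio was 1.5 ± 0.0516 in controls, with a range of 1.42 to 1.60. It was 1.38 ± 0.0456 in AP, from 1.29 to 1.44, and 1.35 ± 0.0384 in SAP, from 1.29 to 1.39. All 8 SAP libraries lay below all controls, while AP overlapped with both. The ratio lay between 1.29 and 1.37 in AP 15, 17, 18 and 19 and between 1.38 and 1.44 in the other AP libraries.

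**Figure D1:**
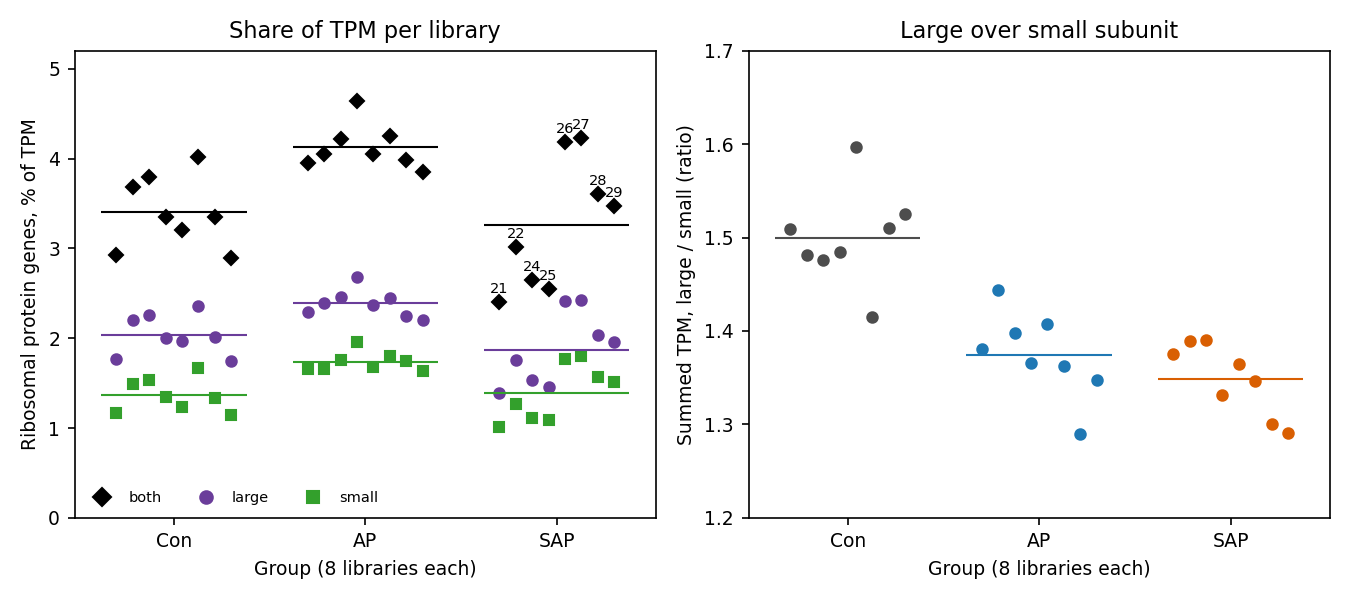
Left, share of TPM held by the 83 genes (diamonds) and by the large (circles) and small (squares) subunit genes in each of 24 libraries, with group means as lines and SAP libraries numbered. Right, ratio of the summed TPM of the large to the small subunit genes, on an axis that does not start at 0; the SAP libraries sit at or below 1.39 and the controls at or above 1.42.

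As listed under their own symbols, members differed widely in level although the ribosome holds their products in fixed amounts. On the TPM scale, which corrects for length, the highest means over 24 libraries in the large subunit were those of Rpl36 (1787 TPM), Rpl13a (1421 TPM) and Rpl38 (1156 TPM). In the small subunit they were Rps27 (1623 TPM, or 1358 ± 321 in controls), Rps29 (1249 TPM) and Rps15 (1146 TPM). The lowest were Rpl12 (11.3 TPM), Rpl7l1 (21.4 TPM) and Rpl3 (43.3 TPM) in the large subunit, and Rps12 (22.1 TPM), Rps4l (24.9 TPM) and Rps2 (26.2 TPM) in the small subunit. Rpl12 sits at the base of the P stalk and Rps2 beside the path of the mRNA, both parts of every ribosome. Of 80 members with transcripts to compare, 64 shared at least 20% of their 50-base windows with another gene, so their own levels are uncertain. Rpl12 shared 49.4% of its windows, Rpl3 67.1%, Rps12 64.9% and Rps2 56.4%. Among members with values given here, Rpl4, Rpl7l1, Rpl21, Rpl22, Rpl39, Rps3, Rps15a, Rps19 and Rps27l shared less than 20%. Rpl21 lay just under that limit at 19.7%, and most of its signal is listed under copies.

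In all, 461 entries, annotated as pseudogenes but for 4 that are only named so (Rps12-ps3 among them), shared at least 20% of windows with 1 of 75 members, and 75 of these entries reached a mean of 1 TPM. For 19 of them the mean exceeded that of the member. Rps2 stood at 26.2 TPM and its copy Rps2-ps10 at 883 TPM. Rps12 stood at 22.1 TPM and Rps12-ps3 at 583 TPM, and Rpl12 at 11.3 TPM and Gm10275 at 538 TPM. In these 3 pairs nearly all of the signal was listed under the copy. With all their near copies added, Rps2 stood at 846 ± 98.3, Rps12 at 442 ± 92.7 and Rpl12 at 505 ± 83.8 TPM in controls. The low levels given above for these 3 members thus hold only for their own symbols. The near copies took 26.5 ± 0.597% of the sum of members and near copies in controls, 25.3 ± 0.567% in AP and 25.1 ± 0.492% in SAP.

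**Figure D2:**
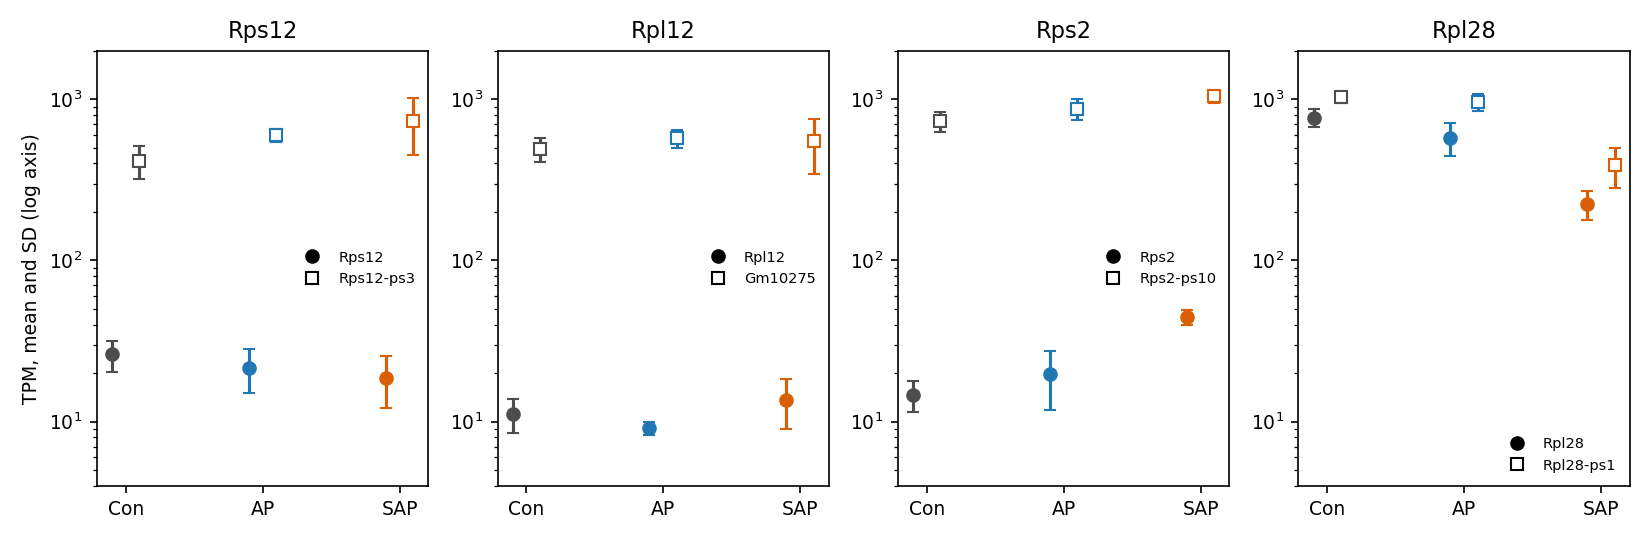
Level (TPM, log axis, mean and SD over 8 libraries) of 4 ribosomal protein genes (filled circles) and their near copies (open squares) in Con, AP and SAP. Rps12, Rpl12 and Rps2 lie below 50 TPM and their copies above 400 TPM, and Rpl28 and Rpl28-ps1 are both lower in SAP.

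In acute pancreatitis a minority of ribosomal protein genes rose against controls, by small amounts. In limma's fit 22 of 83 genes rose (26.5%), 0 fell and 61 did not pass, where 5.48% of all genes tested were called, 4.35% as higher and 1.13% as lower. At an unadjusted p under 0.05 the number was 54, of which 4 were lower. The rises were 8 of 48 large subunit genes and 14 of 35 small subunit genes. In the large and small subunit they were 0 and 5 after quantile normalization and 0 and 6 without the 50 most abundant genes. Without mitochondrial transcripts they were 2 and 7, and after median centring 14 and 14. The median log2 change of the members was 0.34 (0.33 in the large and 0.41 in the small subunit) against 0.06 over all genes tested, and 71 of 83 changes were above 0. The members' median was 0.16 after quantile normalization, 0.22 without the 50 most abundant genes and 0.24 without mitochondrial transcripts. In 8 members every AP library exceeded every control, where 0.644% of all genes tested did so. The count of rises depended on single libraries. It was 5 without Con 1, Con 7, Con 10 or AP 15, 6 without AP 17 and 8 without AP 19. Of all genes tested 459 were higher, and in these fits 160, 135, 155, 136, 158 and 178. After quantile normalization 5 members were higher and 1 lower (all genes 388 and 265). Without the 50 most abundant genes it was 6 and 1 (194 and 215), and without mitochondrial transcripts 9 and 1 (211 and 173). Median centring gave 28 and 0 (747 and 259). Without AP 15, 17, 18 and 19 the count was 0 in limma's fit (21 at an unadjusted p under 0.05), where 9 of all genes were higher. Without AP 11, 12, 13 and 16 it was 25 higher and 4 lower (all genes 975 and 264). Without SAP 21, 22, 24 and 25, or without SAP 26 to 29, which enter this comparison through the shared spread, 43 members were higher and 2 lower. Of all genes 640 and 664 were higher in these fits.

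Only 5 of the 22 genes passed in every fit that left out a library, among them Rps3a2, Rps21, Rpl18 and Rpl37a, of which Rps21, Rpl18 and Rpl37a were picked out after their values were seen. Rps21, the gene of a small subunit protein, had a lowest, median and highest level of 321, 358 and 510 TPM in controls and 555, 575 and 729 TPM in AP, so no AP library reached down to the controls (log2 change 0.64 ± 0.14 SE, adjusted p = 0.0109).

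Among small subunit genes with the largest rises in AP, Rps3, which lines the entry of the mRNA channel, ran from 66.6 over 85.6 to 108.0 TPM in controls and from 108.3 over 140 to 204 TPM in AP. All 8 AP libraries lay above the controls, and the rise was 1.71-fold (log2 change 0.77 ± 0.19, adjusted p = 0.0230, up to 0.0615 with a library left out). Rps7 rose 1.85-fold (log2 change 0.89 ± 0.23, adjusted p = 0.0249), from 43.5 ± 16.5 to 79.4 ± 21.2 TPM. Rps7 passed only as listed: with its near copies added the change was 0.33 (adjusted p = 0.168). Rps15a (248 ± 85.1 TPM in controls) reached 409 ± 106 TPM, and 5 of 8 AP libraries exceeded every control (adjusted p = 0.0374). Rps3a2, annotated as a pseudogene, rose 2.13-fold, from 21.8 ± 8.87 to 45.2 ± 12.0 TPM (adjusted p = 0.00887).

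In severe acute pancreatitis ribosomal protein genes changed in both directions, in shares that were lower than or near those of all genes. Against controls 29 members rose and 24 fell, 53 of 83 in all (63.9%), where 74% of all genes tested were called, 44.2% as higher and 29.8% as lower. The members' own shares were 34.9% higher and 28.9% lower. The large subunit had 14 higher and 13 lower of 48, and the small subunit 15 higher and 11 lower of 35. The median log2 change was 0.07 in the members against 0.21 over all genes, and it was below 0 after median centring (-0.20) and without mitochondrial transcripts (-0.14). Changes ran from -2.74 to 2.17. In 13 members every SAP library exceeded every control (23.2% of all genes did) and in 11 every SAP library was lower (14.6% did). The split was 23 higher and 37 lower after median centring, 25 and 34 without mitochondrial transcripts, and 38 and 13 with trends of transcript length and GC content removed. It was 44 and 16 without SAP 21, 22, 24 and 25, and 23 and 38 without SAP 26 to 29. Over all genes tested 4661 were higher and 3147 lower. These were 3888 and 4300 after median centring, 4174 and 3825 without mitochondrial transcripts, and 4575 and 3229 with those trends removed. Without SAP 21, 22, 24 and 25 they were 5243 and 2542, and without SAP 26 to 29 3909 and 3649.

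**Figure D3:**
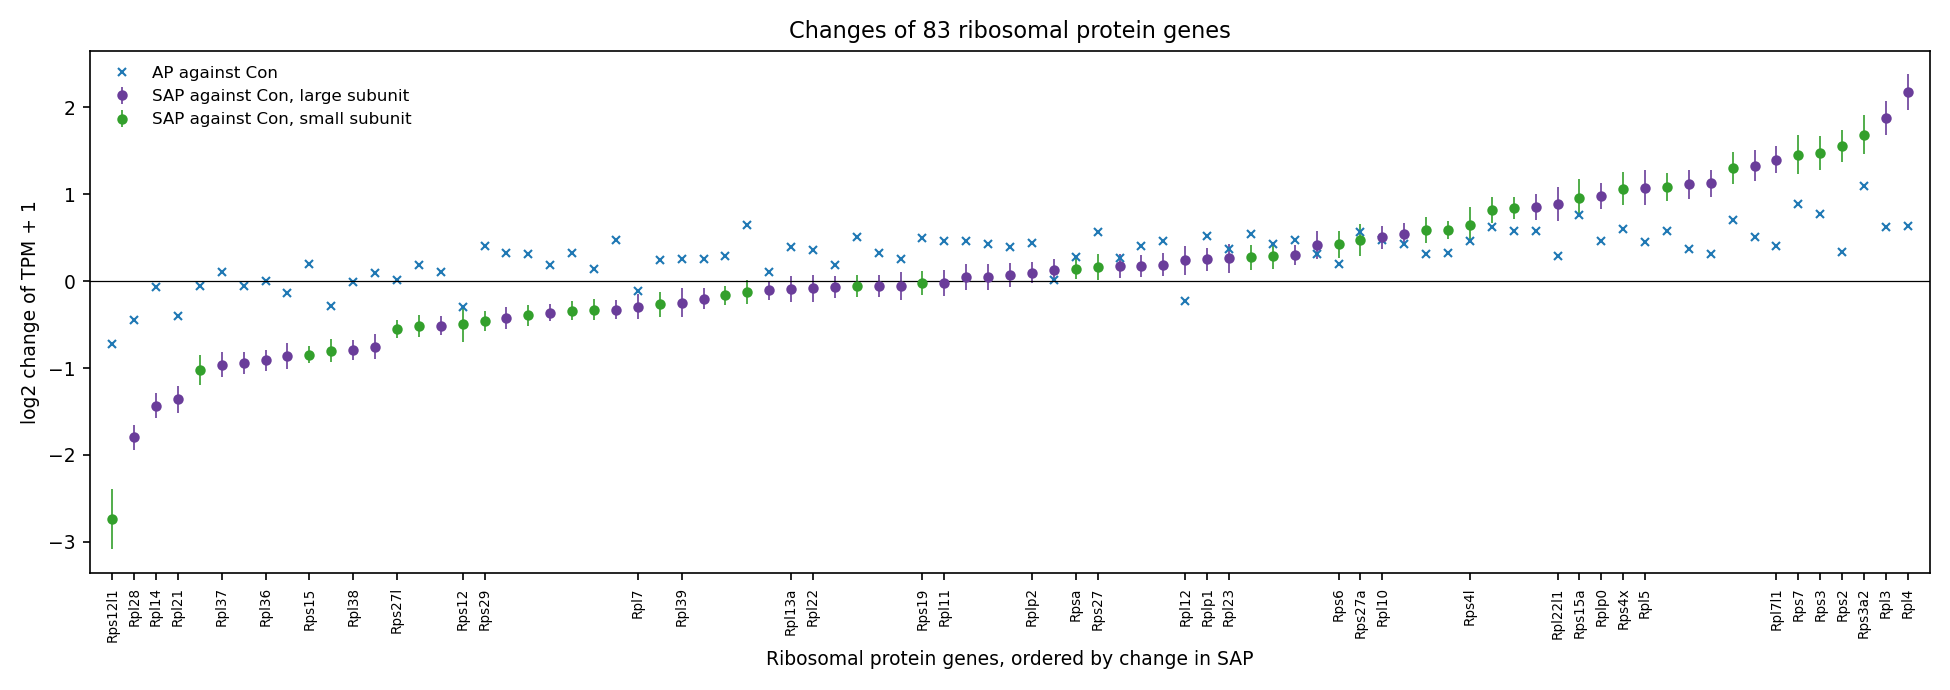
log2 change of TPM + 1 of each of the 83 genes in SAP against Con, ordered by size, with SE bars (large subunit purple, small subunit green), and the change in AP against Con (crosses). Genes chosen to be described are named on the axis. The SAP changes run from -2.74 (Rps12l1) to 2.17 (Rpl4), and the AP changes from -0.72 to 1.09.

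The largest rises as listed were those of Rpl4 and Rpl3, genes of large subunit proteins that reach into its core. Rpl4, which lines the tunnel through which the new peptide leaves, ran from 41.1 over 60.8 to 97.6 TPM in controls, from 69.8 over 95.6 to 139 TPM in AP and from 170 over 274 to 412 TPM in SAP. No SAP library overlapped with either group, and the rise over controls was 4.51-fold (log2 change 2.17 ± 0.21, adjusted p = 9.63e-10). Rpl3, which lies near the site of peptide bond formation, ran from 14.9 over 19.98 to 25.9 TPM in controls, from 22.4 over 31.0 to 48.3 TPM in AP and from 43.4 over 76.0 to 121 TPM in SAP. Its SAP libraries all exceeded the controls and 7 of 8 exceeded AP (log2 change against controls 1.88 ± 0.20, adjusted p = 4.92e-09). In AP the changes of Rpl4 (0.64, adjusted p = 0.0709) and Rpl3 (0.63, adjusted p = 0.0600) did not pass. With its near copies, which hold most of the signal, Rpl3 stood at 54.1 ± 17.7 (Con), 107 ± 39.1 (AP) and 264 ± 78.9 TPM (SAP). On that sum it passed in AP (log2 change 0.97, adjusted p = 0.0209), and its change in SAP was 2.28 (adjusted p = 3.67e-09).

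The P stalk calls elongation factors to the ribosome. Rplp0, the gene of its base, rose in SAP (113 ± 24.5 TPM in controls, 226 ± 54.9 TPM in SAP, log2 change 0.98 ± 0.15, adjusted p = 2.14e-06), with 7 of 8 SAP libraries above every control. In AP its change was 0.46 (adjusted p = 0.0718) as listed and 0.52 (adjusted p = 0.0424) with its near copies. Rplp1, the gene of an acidic stalk protein, had levels of 862 ± 201 (Con), 1215 ± 159 (AP) and 1015 ± 179 TPM (SAP). It rose in AP (log2 change 0.52 ± 0.14, adjusted p = 0.0270), and its change in SAP was 0.25 (adjusted p = 0.0950). Rplp2, the gene of its partner, rose in AP (290 ± 52.4 to 389 ± 29.99 TPM, adjusted p = 0.0369) and was lower in SAP (311 ± 60.4 TPM) than in AP (adjusted p = 0.0163). Differences between the 3 genes were not tested. The AP calls of Rplp1 and Rplp2 were lost after quantile normalization and without the 50 most abundant genes. Rpl12, at the base of the stalk, was higher in SAP than in AP (13.6 ± 4.69 against 9.12 ± 0.818 TPM, adjusted p = 0.0131), but not with its near copies added (log2 change -0.13, adjusted p = 0.511).

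Of small subunit genes that rose in SAP, Rps3 ran from 124.8 over 263.5 to 364.8 TPM in SAP, all above the controls (log2 change 1.48 ± 0.19, adjusted p = 2.04e-07), and it was higher than in AP (log2 change 0.71 ± 0.19, adjusted p = 0.00214). Rps3 is 1 of 5 members higher in AP than in controls and higher again in SAP than in AP, the others being Rps7, Rps24, Rps3a1 and Rps3a2. Rps2 ran from 9.82 over 15.5 to 18.4 TPM in controls and from 35.6 over 43.7 to 51.2 TPM in SAP without overlap (log2 change 1.56 ± 0.18, adjusted p = 3.52e-08). With its near copies, which hold most of the signal, Rps2 went from 846 ± 98.3 to 1109 ± 105 TPM (log2 change 0.39, adjusted p = 0.000508). Rps4x, encoded on the X chromosome, rose from 116 ± 31.2 to 246 ± 74.4 TPM (adjusted p = 1.75e-05). Rps6, the target of the S6 kinases, rose from 310 ± 52.8 to 431 ± 136 TPM (log2 change 0.42 ± 0.16, adjusted p = 0.0179), a call lost after median centring. Rps7 rose from 43.5 ± 16.5 to 122 ± 43.7 TPM (adjusted p = 3.01e-06), and with near copies its change was 0.19 (adjusted p = 0.216). From AP to SAP its log2 change was 0.57 (adjusted p = 0.0282) as listed and -0.14 (adjusted p = 0.388) with near copies.

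The largest fall among coding members was in Rpl28, a large subunit protein found in animals but not in yeast. It ran from 647 over 745 to 894 TPM in controls, from 419 over 585 to 724 TPM in AP and from 161 over 230 to 291 TPM in SAP. The SAP libraries lay below all others, and the fall was 3.47-fold against controls (log2 change -1.80 ± 0.14, adjusted p = 3.74e-11). Its near copy Rpl28-ps1 went the same way, from 1028 ± 76.5 to 391 ± 108 TPM. Within AP the 4 libraries AP 15, 17, 18 and 19 held the 4 lowest levels of Rpl28, as the plot of levels by library shows.

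Rpl14, a large subunit protein, ran from 351 over 434 to 500.8 TPM in controls. It ran from 353 over 419 to 468 TPM in AP and from 103 over 160 to 242 TPM in SAP (log2 change against controls -1.43 ± 0.14, adjusted p = 2.59e-09). AP lay within the range of the controls, and no SAP library reached it. Its near copy Rpl14-ps1, which holds 49.3% of its windows, went the other way, with 114 ± 36.6 (Con), 231 ± 46.4 (AP) and 190 ± 60.3 TPM (SAP; log2 change in SAP 0.73, adjusted p = 0.00186). With the copy added the fall of Rpl14 in SAP was -0.67 on the log2 scale (adjusted p = 9.52e-05), and the ranges overlapped, since the lowest control stood at 463.6 and the highest SAP library at 503.6 TPM. Rpl21, another large subunit gene, fell from 138 ± 15.3 to 54.8 ± 15.6 TPM (log2 change -1.36 ± 0.16, adjusted p = 2.36e-08), again without overlap. With its 44 near copies, which hold most of the signal, the fall of Rpl21 was -0.79 (adjusted p = 1.2e-05). Rps12l1, annotated as a pseudogene, fell from 79.6 ± 29.2 to 12.6 ± 8.05 TPM (log2 change -2.74 ± 0.34, adjusted p = 1.07e-07).

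Of the 6 most abundant members, 4 fell in SAP against controls: Rpl36, Rpl38, Rps15 and Rps29. Rpl36 ran from 1818 over 2046 to 2467 TPM in controls, from 1760 over 2184 to 2308 TPM in AP and from 815 over 1107 to 1503 TPM in SAP. No SAP library overlapped with the others (log2 change against controls -0.91 ± 0.12, adjusted p = 1.83e-07). Rpl38, which is required for the translation of certain Hox mRNAs in the embryo, fell from 1344 ± 126 to 789 ± 165 TPM (adjusted p = 1.1e-06), and Rpl37 from 418 ± 62.4 to 221 ± 66.9 TPM (adjusted p = 2.48e-06). Rps15, near the decoding site, ran from 1033 over 1282 to 1415 TPM in controls and from 565 over 680 to 957 TPM in SAP (log2 change -0.85 ± 0.10, adjusted p = 2.37e-08). Rps29 rose in AP (1230 ± 206 to 1624 ± 184 TPM, adjusted p = 0.0364) and fell in SAP (893 ± 136 TPM, adjusted p = 0.000859 against controls). Rps27, in contrast, rose in AP to 1969 ± 173 TPM (adjusted p = 0.0285) and stood at 1540 ± 424 TPM in SAP, with no call against controls (adjusted p = 0.317).

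**Figure D4:**
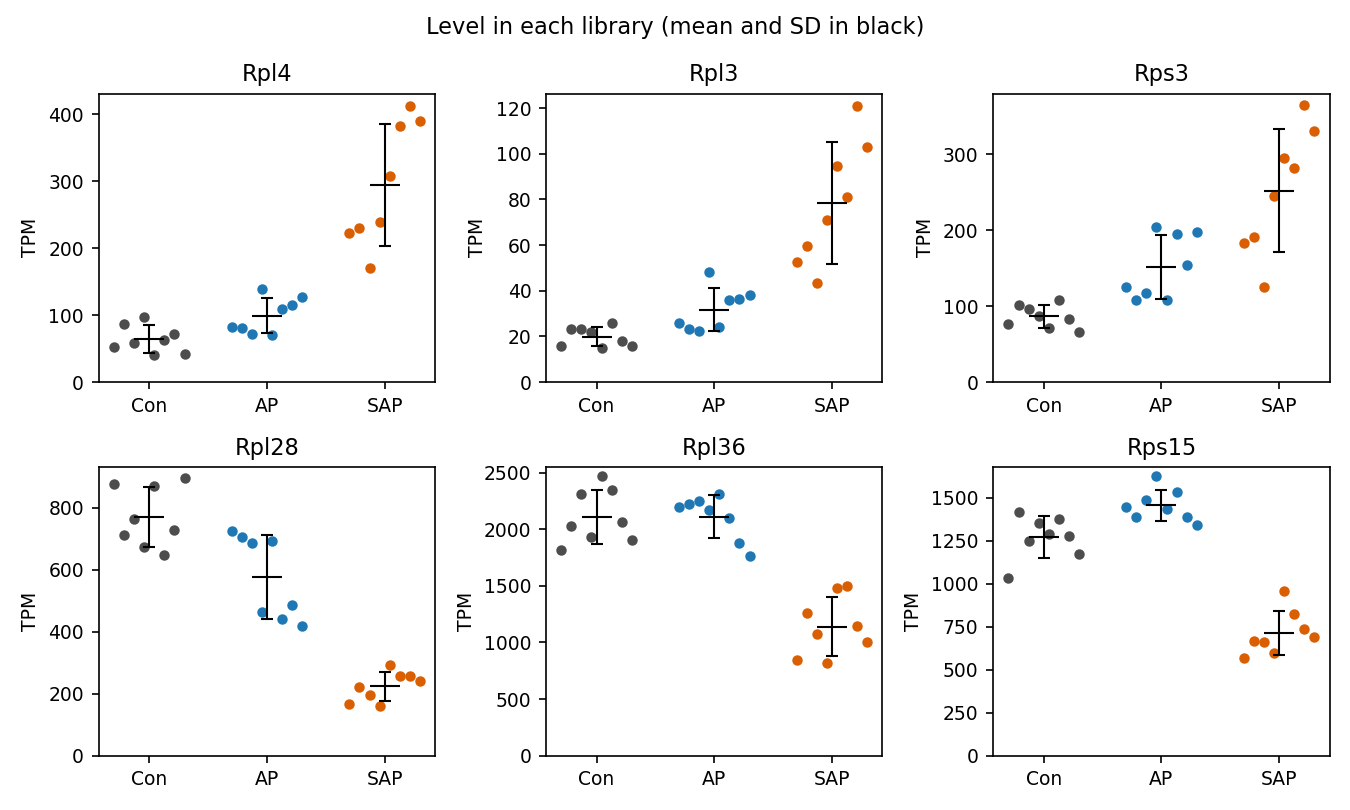
Level (TPM) of 6 ribosomal protein genes in each library of Con, AP and SAP, with mean and SD in black and libraries in order of their numbers. Rpl4, Rpl3 and Rps3 are higher in all 8 SAP libraries than in all controls, and Rpl28, Rpl36 and Rps15 are lower in all 8.

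Set against AP, SAP had 18 members higher and 39 lower, 57 of 83 in all (68.7%), where 72.1% of all genes tested were called, 41% as higher and 31% as lower. The large subunit had 10 higher and 23 lower, and the small subunit 8 higher and 16 lower. The median log2 change was -0.27 in the members against 0.13 over all genes. The members' median was -0.08 after quantile normalization, -0.14 without the 50 most abundant genes, -0.49 after median centring, -0.01 with length and GC trends removed, -0.03 without SAP 21, 22, 24 and 25, and -0.56 without SAP 26 to 29. In 17 members every SAP library was below every AP library (15.2% of all genes) and in 4 above (22%). More members were lower than higher under each scaling (higher and lower, 24 and 30 after quantile normalization, 24 and 33 without the 50 most abundant genes, 11 and 52 after median centring, 15 and 47 without mitochondrial transcripts), but not with length and GC trends removed (28 and 22) nor without SAP 21, 22, 24 and 25 (27 and 23), and without SAP 26 to 29 the numbers were 7 and 54. The SAP comparisons share the SAP libraries, and AP against Con shares its libraries with both. Of the 83 genes, 23 were lower in SAP than in both other groups and 17 were higher than in both, and 10 passed in no comparison, among them Rpl7, Rpl23 and Rpsa.

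Paralogs are given side by side. Rpl7 passed in no comparison, with 292 ± 39.7 (Con), 270 ± 36.0 (AP) and 245 ± 69.2 TPM (SAP), and its paralog Rpl7l1 rose from 12.5 ± 2.75 to 35.1 ± 9.49 TPM in SAP (log2 change 1.40 ± 0.16, adjusted p = 1.63e-08). Rpl22, which also binds RNAs outside the ribosome, stood at 226 ± 44.0 TPM in controls and 220 ± 75.2 in SAP (adjusted p = 0.650), and Rpl22l1 rose from 60.7 ± 17.0 to 115 ± 37.9 TPM (adjusted p = 0.000225). Rps27l, an Rps27 paralog induced by p53, fell from 721 ± 95.1 to 493 ± 81.3 TPM (adjusted p = 2.47e-05). Rps4l rose from 18.4 ± 4.41 to 29.1 ± 5.64 TPM in SAP (adjusted p = 0.00656). Rpl10 rose in AP (271 ± 48.3 to 376 ± 70.7 TPM, adjusted p = 0.0369) and in SAP (385 ± 75.7 TPM, adjusted p = 0.00152). Its AP call held in 17 of 24 limma fits that left out a library (adjusted p up to 0.0956). Every fit that lost this call left out an AP or control library, while a left-out SAP library changes only the shared spread. Rpl39, whose product lines the exit tunnel, was lower in SAP (192 ± 62.8 TPM) than in AP (263 ± 32.7 TPM, adjusted p = 0.00771). Rpl3l, Rpl10l and Rpl39l were near 0, and differences between paralogs were not tested.

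Members with known roles outside the ribosome had calls in different comparisons. Rpl5 and Rpl11, which bind Mdm2 as a pair, stood at 30.8 ± 8.11 and 558 ± 118 TPM in controls. Rpl5 rose in SAP to 69.6 ± 28.4 TPM (log2 change 1.08 ± 0.20, adjusted p = 3.64e-05), and Rpl11 stood at 556 ± 154 TPM there (adjusted p = 0.906) after 757 ± 68.8 TPM in AP (adjusted p = 0.0644). In limma Rpl11 was lower in SAP than in AP (log2 change -0.48, adjusted p = 0.00508), also with its near copies (-0.56, adjusted p = 0.00057). The Rpl5 rise came with a wide spread: 39.8 to 46.4 TPM in SAP 21, 22, 24 and 25, below Con 8 (48.0 TPM) and above the other controls, and 86.0 to 105 TPM in SAP 26 to 29. Against AP the Rpl5 rise (log2 change 0.63, adjusted p = 0.00736) did not pass with its near copies (0.38, adjusted p = 0.107). Rpl23, which also binds Mdm2, passed in no comparison (216 ± 35.9, 278 ± 25.9 and 270 ± 94.5 TPM). Rps19, mutated in Diamond-Blackfan anaemia, rose in AP (216.6 ± 45.9 to 300.6 ± 22.4 TPM, adjusted p = 0.0403) and was lower in SAP than in AP (216 ± 55.6 TPM, adjusted p = 0.00229). Its rise in AP held in 13 of 24 limma fits that left out a library (adjusted p up to 0.096). Every fit that lost this rise left out an AP or control library. Leaving out a SAP library changes only the shared spread in that comparison. Rpl13a, part of a complex that silences inflammatory mRNAs, stood at 1300 ± 183, 1695 ± 168 and 1268 ± 424 TPM and was lower in SAP than in AP (adjusted p = 0.00589). Rps27a, made as a fusion with ubiquitin, rose in SAP (253 ± 81.8 to 356 ± 122 TPM, adjusted p = 0.0226), a call lost without Con 6 (largest adjusted p with a library left out 0.0600) or without SAP 27. Rpsa, also known as a laminin receptor, stood at 497 ± 44.8, 604 ± 55.5 and 562 ± 140 TPM with no call.

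Within SAP the libraries fell apart in level across most of the family. In 65 of 83 members (78.3%) all of SAP 26 to 29 lay above all of SAP 21, 22, 24 and 25, where 28.5% of all genes tested did so, and in 0 members all lay below (4.84% of all genes). These sets of libraries were known from earlier results of the same data, so no test was made. Rpl4 ran from 170 to 240 TPM in the first 4 libraries and from 307 to 412 TPM in the last 4. Rps6 ran from 271 to 352 and from 517 to 607 TPM, and Rps15a from 279 to 380 and from 577 to 686 TPM. Of genes that fell in SAP, Rpl28 and Rps15 showed the same order, while the ranges of Rpl14, Rpl36, Rpl37 and Rpl38 overlapped. Rpl28 ran from 161 to 220 and from 240 to 291 TPM, and Rps15 from 565 to 668 and from 692 to 957 TPM. Rps2 was also among the 18 members whose ranges overlapped, at 35.6 to 44.2 and 42.3 to 51.2 TPM. Serum amyloid A genes took 7.37 to 9.28% of TPM in the first 4 libraries and 9.88 to 12.4% in the last 4, and neutrophil markers summed to 127 to 257 and 148 to 358 TPM. Their part in this order was not tested.

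Members are grouped here by coding length, with no test between the groups. Among the 80 coding members the 26 of up to 400 bases had a median log2 change against controls of -0.19, with 5 higher and 12 lower. The 21 from there to 500 bases had -0.10 (3 higher, 7 lower), the 8 up to 600 bases 0.14 (4 and 2), the 13 up to 750 bases 0.42 (7 and 2), and the 12 longer ones 1.02 (8 and 0). The longest members, Rpl4 and Rpl3 with 1257 and 1209 bases, had the largest rises among coding members. Rpl41, the shortest at 138 bases and named here after its value was seen, was an exception with a rise in SAP from 345 ± 69.6 to 762 ± 179 TPM (adjusted p = 4.73e-07). All other tested genes of the same classes had medians of -0.10, 0.02, 0.30, 0.28 and 0.29. Of these other genes 36.6%, 38.8%, 47.5%, 46.8% and 47.5% were called higher, and 39.8%, 34.8%, 29.9%, 26.7% and 27.1% lower.

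Across these 80 genes, which share the same libraries, Spearman's rho between coding length and log2 change was 0.47 for SAP against controls, 0.53 for SAP against AP and 0.21 for AP against controls. Over 9442 other tested genes it was 0.02, 0.09 and -0.25. In the 16 coding members that shared under 20% of their windows it was 0.62, 0.59 and 0.56. Near copies still affect some of these members, and were not added here. With copies, the SAP change against controls went from -1.02 to -0.35 in Rps20 and from -1.36 to -0.79 in Rpl21. With its copies Rpl8 did not pass in limma in AP (adjusted p = 0.509) or in SAP against controls (adjusted p = 0.0574). In these 16 genes, 7 rose and 0 fell in AP (at an adjusted p under 0.05 in limma), where 4.35% and 1.13% of all genes did. In SAP 9 rose and 3 fell against controls (44.2% and 29.8% of all genes), and 5 rose and 7 fell against AP (41% and 31%). Genes are not independent replicates. With the trends of transcript length (not coding length) and GC content over all tested genes removed, 38 members were higher and 13 lower in SAP than in controls. Of the 10536 genes in that fit 4575 were higher and 3229 lower.

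**Figure D5:**
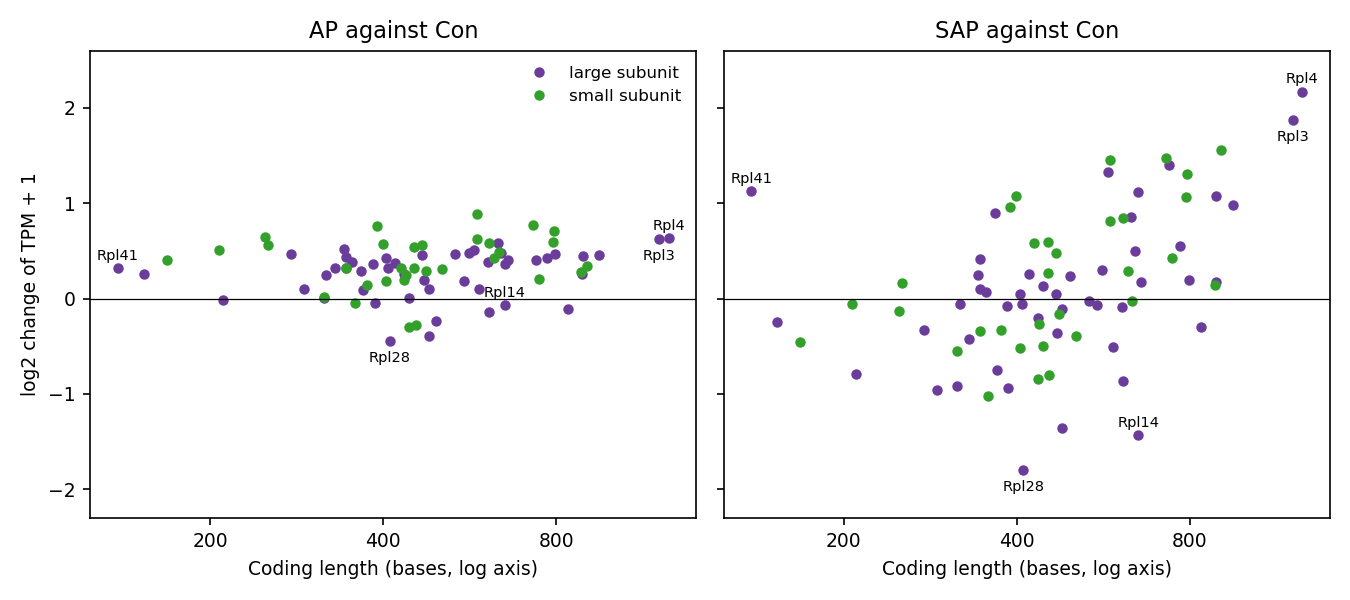
log2 change of TPM + 1 of 80 coding ribosomal protein genes against coding length in bases (log axis), in AP against Con (left) and SAP against Con (right), with large subunit genes in purple and small subunit genes in green. In SAP the longest genes, Rpl4 (2.17) and Rpl3 (1.88), lie highest, and Rpl28 (-1.80) and Rpl14 (-1.43) lowest, with Rpl41 high among the shortest.

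Adding each member's near copies changed some calls. In SAP against controls 48 members kept call and direction, 4 were called only alone, 5 only with their copies and 1 changed direction. In AP the numbers were 19, 3, 2 and 0, and in SAP against AP 53, 4, 2 and 0. The gene that turned was Rps12, a small subunit protein: alone it fell from 26.1 ± 5.65 to 18.7 ± 6.68 TPM (log2 change -0.49 ± 0.20, adjusted p = 0.0297), and with its copies it rose by 0.70 on the log2 scale (adjusted p = 0.00120). Leaving out Con 1, Con 6, SAP 21, SAP 25, SAP 28 or SAP 29 also ended the call of Rps12 alone (adjusted p up to 0.0675). Rps12-ps3, which holds most of that sum, stood at 415 ± 95.4 TPM in controls and 733 ± 283 in SAP.

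Both directions occurred among members with each motif against controls. Of all genes tested, 44.2% rose and 29.8% fell in SAP against controls, and 41% and 31% against AP. Of 13 members with a C and pyrimidines at the annotated start, 2 rose and 8 fell in SAP against controls, and 0 rose and 11 fell in SAP against AP. Of the 47 without, 19 rose and 10 fell against controls, and 15 rose and 19 fell against AP. Of 41 with CGGAAG, 9 rose and 15 fell against controls, and of 19 without it 12 rose and 3 fell. Against AP, 7 rose and 23 fell with CGGAAG, and 8 rose and 7 fell without it. Of 16 with CTTTCC, 2 rose and 8 fell against controls and 1 rose and 12 fell against AP, and of the 44 without it 19 rose and 10 fell, and 14 rose and 18 fell. These counts describe letters in the annotated windows, and no difference between them was tested. Rpl4 and Rpl31, whose windows are printed above, both carry runs of 13 pyrimidines that end before the annotated start, and the first rose and the second fell.

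Other mRNAs that carry a TOP motif were listed for comparison: elongation factors, initiation factors and a few others, 20 in all. In AP 3 rose and 0 fell (in limma's test), with a median log2 change of 0.35, where 4.35% of all genes were called higher and 1.13% lower. In SAP against controls 15 rose and 3 fell (44.2% and 29.8% of all genes), with a median of 0.77 against 0.21 over all genes. Against AP 12 rose and 5 fell (41% and 31% of all genes). Eef2, the elongation factor that moves the ribosome along, rose from 128 ± 42.0 to 389 ± 97.3 TPM (log2 change 1.62, adjusted p = 4.01e-08). Eef1a1, which brings in aminoacyl-tRNA, rose from 776 ± 186 to 1607 ± 343 TPM (adjusted p = 8.68e-07). Rack1, a protein bound to the small subunit, fell from 352 ± 53.7 to 265 ± 76.0 TPM (adjusted p = 0.00583), as did Eif3k and Eef1d.

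Fau, outside the naming rule and a fusion of a ubiquitin-like protein with a small subunit protein, rose in AP (600.8 ± 96.7 to 779 ± 89.9 TPM, adjusted p = 0.0384) and stood at 594 ± 85.4 TPM in SAP (adjusted p = 0.916 against controls). Of 16 tested regulators of ribosomal protein genes and TOP mRNAs, 10 rose and 5 fell in SAP against controls, where 44.2% and 29.8% of all genes did. Those that fell were Rptor, Rps6kb2, Eif4ebp2, Akt1s1 and Tsc2. Rps6kb1, a kinase of Rps6, rose from 2.25 ± 0.313 to 13.4 ± 4.14 TPM (adjusted p = 4.71e-12), while Rps6kb2, a kinase of the same family, fell by 0.42 on the log2 scale (adjusted p = 0.0112). Myc, which drives ribosome production, rose from 1.38 ± 1.30 to 8.18 ± 3.67 TPM (adjusted p = 8.82e-07). Larp1, which binds TOP motifs, stood at 14.9 ± 2.69 and 16.2 ± 1.95 TPM (adjusted p = 0.307). Eif4ebp1, a repressor of cap-dependent translation under mTOR, was the 1 regulator that rose in AP (27.6 ± 6.43 to 38.1 ± 5.30 TPM, adjusted p = 0.0438), and it reached 60.6 ± 13.7 TPM in SAP, while its relative Eif4ebp2 fell by 1.54 on the log2 scale (adjusted p = 8.39e-08). Rptor, the mTOR partner that binds its substrates, fell by 0.87 (adjusted p = 1e-06).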

How the data were processed

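Liver RNA had been isolated with Trizol and made into Illumina libraries, per the labels. The authors deposited 1 table of 24 libraries whose values are TPM with 2 decimals, a unit read from column sums just under 1000000. The submitters' processing notes name only edgeR, without a version. No source used here names the aligner, genome build or annotation. All 24 columns were matched to samples by title, and 0 were left unmapped.

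A pseudocount of 1 was added before taking log2. Genes averaging 1 TPM or more were fitted by group over all 24 libraries with limma 3.58.1 in R 4.3.3, with an intensity trend and 21 residual degrees of freedom, and p-values were adjusted by Benjamini-Hochberg over 10555 genes within a comparison. The script was checked on simulated data. Lengths, coding sequences, gene types and shared 50-base windows came from GENCODE M21, which holds 99.81% of the names, and promoters from RefSeq. Values were given for the most and least abundant members of each subunit, the 4 largest rises and falls per comparison, the P stalk, paralog pairs and members with roles outside the ribosome. Results for some genes are not reported here. Members, lists and this rule were chosen with earlier results of these data known. Alternatives covered scaling, pseudocount, filter, model, threshold, pseudogenes and left-out libraries.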

Additional observations from a re-analysis of the deposited data

Results flagged for a closer look

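In 123 tests of a gene's 8 libraries in a group (39 genes with values given and sums over members), 4 had a lowest or highest library separated from the others by more than Dixon's 95% limit. Chance alone marks about 1 in 20 such groups. Rpl10 stood at 542.9 TPM in AP 15, with the other 7 AP libraries at 318.6 to 388.3 TPM. Rps3a2 stood at 70.42 TPM in AP 15, with the others at 34.65 to 51.33 TPM. Rpl5 stood at 48.01 TPM in Con 8, with the others at 22.48 to 33.55 TPM. Rps4l stood at 41.76 TPM in SAP 29, with the others at 24.04 to 31.35 TPM.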

How the results depend on the processing

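No paired analysis was possible because the groups share no replicate numbers. The number of members higher in AP than in controls (22) was 5 after quantile normalization, 6 without the 50 most abundant genes, 9 without mitochondrial transcripts, 6 without a filter, 38 with array weights or with the 2 groups alone, 1 at a threshold of 0.01, 14 with a log2 change of at least 0.5, 43 without SAP 21, 22, 24 and 25 or without SAP 26 to 29, and 0 (21 at an unadjusted p under 0.05, limma) without AP 15, 17, 18 and 19. The number lower in AP (0) was 1 after quantile normalization, without the 50 most abundant genes, without mitochondrial transcripts or with array weights, 2 without either set of SAP libraries, and 4 without AP 11, 12, 13 and 16. For SAP against controls, the 29 higher were 44 without SAP 21, 22, 24 and 25, and the 24 lower were 37 after median centring, 13 with length and GC trends removed and 38 without SAP 26 to 29. For SAP against AP, the 18 higher were 11 after median centring, 28 with length and GC trends removed, 7 without SAP 26 to 29 and 8 without AP 11, 12, 13 and 16, and the 39 lower were 22 with length and GC trends removed and 23 without SAP 21, 22, 24 and 25. Calls over all genes tested also changed with these settings. In AP against controls 459 genes were higher, 9 without AP 15, 17, 18 and 19, and 1252 with array weights. In SAP against AP 4332 genes were higher and 3275 lower. These were 4904 and 2595 without SAP 21, 22, 24 and 25, and 3518 and 3791 without SAP 26 to 29. The causes were not tested. With single libraries left out the counts of members ran from 5 to 29 and 0 to 1 in AP, 27 to 31 and 23 to 27 in SAP against controls, and 15 to 20 and 37 to 47 in SAP against AP.

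The share of TPM in controls was 7.94% without the 50 most abundant genes, 4.10% without mitochondrial transcripts and 4.01% with named pseudogenes added. In AP these were 8.77%, 4.63% and 4.82%, and in SAP the first was 7.61%. Quantile normalization and median centring give no share. Of 66 calls of genes with values given, 14 were lost after quantile normalization, 10 after median centring, 11 without mitochondrial transcripts, 10 without the 50 most abundant genes and 1 with named pseudogenes added, which also turned Rps12 in SAP against controls to 0.70. Scaling moved the median of all genes in SAP against controls from 0.21 to 0.03 (quantile), -0.06 (centred) and 0.04 (without mitochondrial transcripts), in SAP against AP from 0.13 to 0.01, -0.10 and 0.05, and, without the 50 most abundant genes, to 0.25 there and from 0.06 to -0.06 in AP against controls. Adding near copies was chosen after seeing the data. The unknown depth limits what can be said of genes at low TPM.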
